A study of Mus musculus with 4 samples.

Results

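Subcluster 8 was 1 of the 10 groups into which the authors had divided their group 2 innate lymphoid cells (ILC2s), lymphocytes without antigen receptors that reside in tissues and release type 2 cytokines. Its members were the genes that the deposited ILC2 subcluster table lists for it, 253 of the 2629 genes that the table lists for any subcluster. The 5 genes given as its markers were all among them: *Ly6a*, *Gbp4*, *Igtp*, *Il13* and *Ctla4*. The cells came from wild-type male 8-week-old BALB/c mice that received PBS or recombinant IL-33 (rIL-33, 0.5 µg per dose) into the peritoneum on each of 5 days, and were sorted from liver and lung as lineage-negative CD127+Thy1+ST2+ cells. The 4 libraries formed 4 groups with 1 library each, from rIL-33-treated liver, rIL-33-treated lung, PBS-treated liver and PBS-treated lung, and tissues of several mice were pooled for each. The table was made from all 4 libraries together and holds no value per library, so neither the treatments nor the organs were compared, and no test was possible. The paper describes ILC2s of rIL-33-treated liver as enriched in certain subclusters, 8 among them. Subcluster 8 and the other ILC2s thus differed in their mix of libraries, and the part of this in the shares was not tested.

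For each listed gene the table gives the share of cells in which the gene was detected, inside the subcluster and among all other ILC2s. These shares carry no error here, because the table gives neither the number of cells nor their depth. Where a subcluster does not list a gene, the gene may have been lower or similar there, too rare, or left untested, and these cases look alike. The listing of a gene is how the cells were described after clustering on their own expression, and it is not a test of the subcluster. The size of the subcluster was solved from the shares, since the share of all ILC2s with a gene must be the same whichever subcluster lists it. Over 768 genes listed for at least 2 subclusters the root mean square residual was 0.0204 percentage points, and subcluster 8 came to 0.668% of the ILC2s. Only subcluster 9, at 0.611%, was smaller, and subcluster 0, the largest, held 27.3%. All values for subcluster 8 therefore rest on a small part of the cells, and shares that lie close together are not told apart by them.

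Interferons are cytokines that infected or activated cells release, and their receptors act through JAK kinases on transcription factors. The factors activated by type II interferon bind gamma-activated sites, and those activated by type I interferon, among them a complex that holds IRF9, bind interferon-stimulated response elements (ISREs), which IRF1 can also bind. Their target genes include the guanylate-binding proteins and immunity-related GTPases, which attack the membranes around intracellular pathogens, and the immunoproteasome, peptide transporters and MHC class I molecules, which display peptides on the cell surface. In ILC2s, IL-33 acts through its receptor ST2 to drive release of IL-13 and other type 2 cytokines, and interferons are known to restrain this release.

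The genome carries several of the listed interferon genes side by side, and reference sequence before their starts shows the letters that interferon-activated factors are known to bind. All 5 protein-coding genes of the guanylate-binding protein cluster at chr3:142493978-142638008 (GRCm38, the assembly of build mm10) were listed for subcluster 8, namely *Gbp5*, *Gbp7*, *Gbp3*, *Gbp2b* and *Gbp2*. All 5 hold the ISRE core, and the sequences of 4 of them are shown as examples of it, GAAANNGAAA on either strand, so that it reads as TTTCNNTTTC on the strand of the gene. Capitals mark the matches. They lie on the plus strand, as do the genes, and are given 5′ to 3′. Starts here are the RefSeq starts, and the match before the start of *Gbp2* lies inside the span that GENCODE gives for the gene.
Gbp7, chr3:142530258-142530317, bases 78 to 19 before the start: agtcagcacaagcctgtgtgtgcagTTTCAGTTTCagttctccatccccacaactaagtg
Gbp3, chr3:142559992-142560021, bases 52 to 23 before the start, with 2 overlapping matches: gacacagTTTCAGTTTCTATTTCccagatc
Gbp2b, chr3:142594685-142594744, bases 162 to 103 before the start: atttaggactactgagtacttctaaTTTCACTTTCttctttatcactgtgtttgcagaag
Gbp2, chr3:142620594-142620623, bases 69 to 40 before the start: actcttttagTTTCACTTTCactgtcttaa

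*Isg15* and a pair of immunity-related GTPases show the same letters on the strand of the gene, and *Igtp* also holds the letters of a gamma-activated site, TTCNNNGAA. The genes *Isg15* and *Irgm1* are on the minus strand and *Igtp* is on the plus strand. Capitals again mark the matches. The stretch of *Irgm1* lies before a RefSeq start but inside the GENCODE span of the gene.
Isg15, chr4:156200850-156200921, bases 103 to 32 before the start, with 3 matches: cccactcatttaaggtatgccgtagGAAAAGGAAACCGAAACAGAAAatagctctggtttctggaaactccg
Irgm1, chr11:48871428-48871457, bases 37 to 8 before the start, with 2 matches: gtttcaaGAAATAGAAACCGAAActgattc
Igtp, chr11:58199486-58199555, bases 70 to 1 before the start, a gamma-activated site and then the ISRE core: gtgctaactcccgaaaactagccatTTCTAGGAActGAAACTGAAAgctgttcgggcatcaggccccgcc

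*Il13* and *Irf1* are shown because both were listed for subcluster 8 and are neighbours on chromosome 11, the 2 listed genes of 5 protein-coding genes at chr11:53631324-53778374. The gene *Il13* is on the minus strand, and the 250 bases before its start hold neither set of letters. *Irf1* is on the plus strand and holds the letters of a gamma-activated site, in capitals.
Il13, chr11:53634703-53634757, bases 55 to 1 before the start: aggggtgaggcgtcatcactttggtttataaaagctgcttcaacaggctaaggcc
Irf1, chr11:53769899-53769957, bases 115 to 57 before the start: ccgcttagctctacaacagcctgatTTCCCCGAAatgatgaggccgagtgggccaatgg

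All 253 listed genes were detected in a larger share of the subcluster 8 cells than of the other ILC2s. Listing for subcluster 8 took in 9.62% of the genes in the table, and 8.82% were listed with a share at least 10 percentage points higher, which is 232 of the 253. The difference between the shares had a median of 18.9 percentage points, and it was at least 20 points for 106 genes and at least 30 points for 18. A difference near 0 belongs mostly to genes that nearly every ILC2 expresses, since 31 of the listed genes were detected in at least 95% of the subcluster 8 cells. The ratio of the shares does not have this ceiling for rare genes, and its median over the listed genes was 1.48. It reached at least 2 for 41 genes and at least 3 for 8, and those 8 genes, from *Gbp6* to *Gbp5*, were all on the lists of interferon genes described next. Each listing needed at least 25.0% of cells on one side, and these 8 genes were in 3.3% to 13.7% of the other ILC2s, so their listing for subcluster 8 required a share well above that of the others and their large ratios are in part given by this limit. For the other subclusters, the median difference ran from −21.3 points in subcluster 5, where 978 of 1000 listed genes were detected in a smaller share of its cells than of the others, to 34.1 points in subcluster 4.

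**Figure D1:**
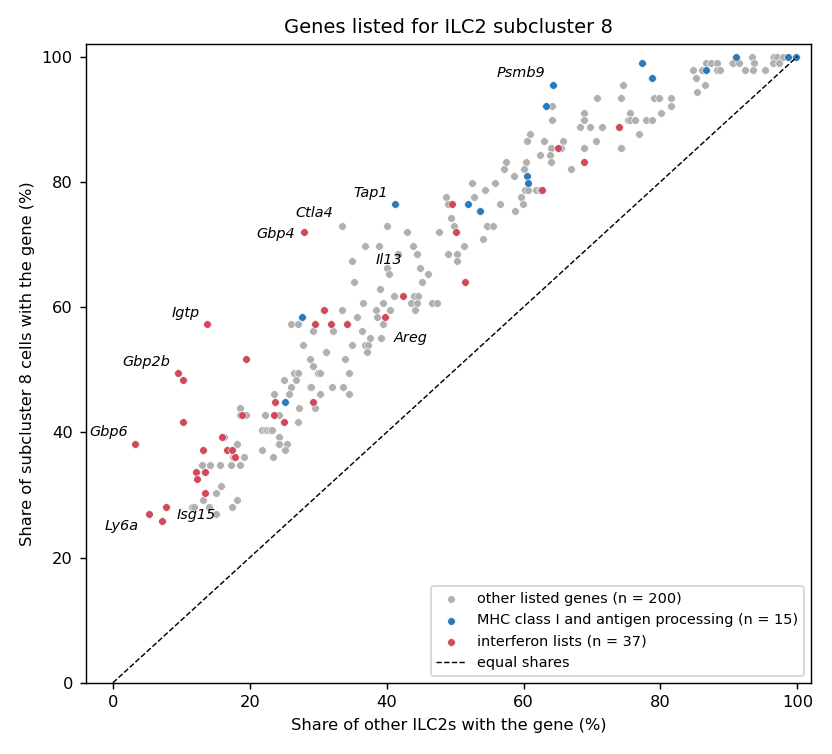
Share of subcluster 8 cells (vertical axis, %) against the share of all other ILC2s (horizontal axis, %) in which 252 of the 253 listed genes were detected. Each point is 1 gene, coloured by gene list, the dashed line marks equal shares, and every point lies above it. Gbp4, at 71.9% against 27.9%, and Igtp, at 57.3% against 13.7%, are among the points farthest above the line.

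Genes of the interferon response had the largest ratios of the shares. The 3 lists of interferon genes, namely interferon-inducible GTPases, interferon receptors and signalling, and other interferon-stimulated genes, held 97 genes, of which 46 were in the table and 38 were listed for subcluster 8. Against these 38, subcluster 1 listed 9, subclusters 4 and 7 listed 3 each, subcluster 0 listed 2, subcluster 3 listed 1, and subclusters 2, 6 and 9 listed none. Subcluster 5 listed 12, but 11 of them with a smaller share inside the subcluster than outside it. Of all genes in the table, subcluster 0 listed 11.4%, subcluster 1 listed 13.8%, subcluster 2 listed 4.98%, subcluster 3 listed 9.01%, subcluster 4 listed 30.5%, subcluster 5 listed 38.0%, subcluster 6 listed 7.23%, subcluster 7 listed 10.3% and subcluster 9 listed 7.57%. The median ratio of the shares was 2.18 over the 38 interferon genes and 1.45 over the 200 members that were on neither the interferon lists nor the list for MHC class I. The median differences lay closer together, at 21.4 and 18.2 percentage points, and the median shares in the other ILC2s were 21.6% and 44.3%, a lower share outside giving a larger ratio for the same difference. Of the 106 genes that differed by at least 20 percentage points 25 were interferon genes, and of the 18 that differed by at least 30 points 8 were. Because the lists were written with earlier results of these data known, these counts are descriptions. A gene rare in the other ILC2s could enter the table only through a subcluster where it was frequent. Counts of table genes listed for subcluster 8, or for it alone, are in part given by this.

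**Figure D2:**
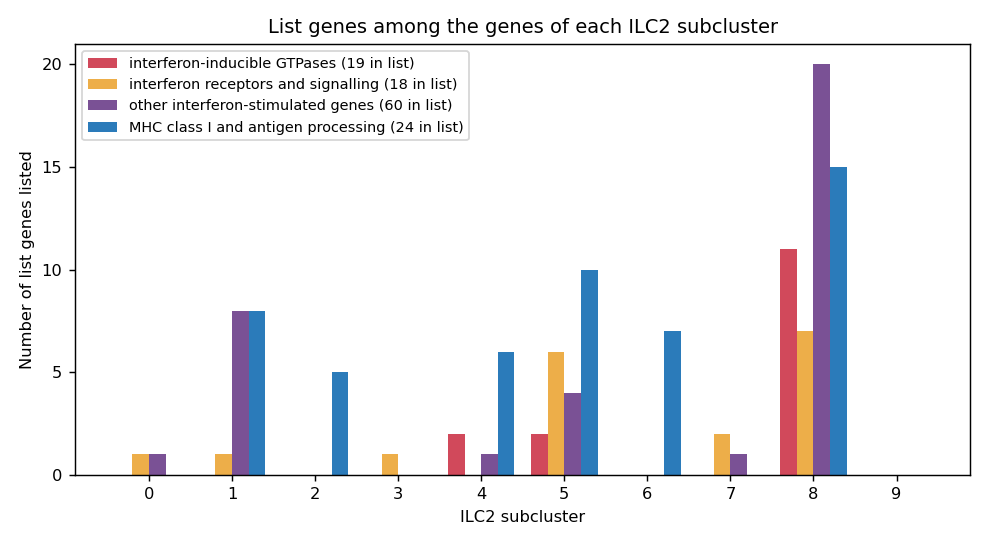
Number of genes of 4 lists (vertical axis) that were listed for each of the 10 ILC2 subclusters (horizontal axis). Subcluster 8 listed 11 GTPases, 7 receptor and signalling genes, 20 other interferon-stimulated genes and 15 genes of MHC class I and antigen processing; in subcluster 5, 11 of the 12 interferon genes and all 10 antigen-processing genes were detected in a smaller share of its cells than of the others.

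Of the 3 lists, the interferon-inducible GTPases had the largest median ratio of the shares, 3.58, against 1.92 for the other interferon-stimulated genes and 1.53 for the signalling genes. All 11 of these genes that were in the table were listed for subcluster 8, and 8 of them for no other subcluster. Both counts are in part given by the limit on listing, since most of these genes were rare in the other ILC2s. *Gbp4*, a guanylate-binding protein gene at chr5:105115767-105139586 and 1 of the 5 given markers, was detected in 71.9% of the subcluster 8 cells and in 27.9% of the other ILC2s. Its neighbour *Gbp6* had the largest ratio of all 253 genes, 11.6, with 38.2% against 3.3%. The third listed gene of that cluster, *Gbp8*, was at 33.7% against 13.4%. In the chromosome 3 cluster the shares were 49.4% against 9.5% for *Gbp2b*, 48.3% against 10.3% for *Gbp2*, and 25.8% against 7.2% for *Gbp5*. None of these 6 genes was listed for another subcluster. *Gbp3* was at 41.6% against 10.3%, and it was also listed for subcluster 4, where it was detected in 33.7% of cells. *Gbp7* was widespread in the other ILC2s at 49.6% and reached 76.4% in subcluster 8, while subcluster 5, the only other subcluster listing it, had it in 23.9%.

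The immunity-related GTPases, which act with guanylate-binding proteins at the membranes of vacuoles that hold pathogens, showed the same direction. *Igtp*, also called Irgm3, was detected in 57.3% of the subcluster 8 cells against 13.7% of the other ILC2s. *Irgm1*, a regulator of the other members of its family, was at 37.1% against 13.2%. *Ifi47* was at 59.6% against 30.9%. Subcluster 4, at 61.2%, was close to subcluster 8. The other genes on the list of interferon-inducible GTPases, *Gbp9*, *Gbp10*, *Gbp11*, *Irgm2*, *Iigp1*, *Tgtp1*, *Tgtp2* and *Gvin1*, were not in the table. Genes within the guanylate-binding protein and immunity-related GTPase families are near-identical in part, so reads could have been assigned to the wrong copy.

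Among the genes of interferon signalling, 7 of the 12 in the table were listed for subcluster 8. *Irf9*, the gene of a DNA-binding subunit of the complex on ISREs, was at 37.1% against 16.6%. *Irf7*, a factor that amplifies type I interferon, was at 33.7% against 12.1%, and *Irf1* was at 44.9% against 29.3%. Genes that were more widespread in the other ILC2s had smaller ratios, with *Nmi*, an interferon-induced signalling protein, at 58.4% against 39.8%, *Irf2*, a repressor that competes with IRF1, at 78.7% against 62.7%, and *Jak2*, a kinase of the type II interferon receptor, at 64.0% against 51.4%. The receptor genes *Ifngr1*, *Ifnar1* and *Ifnar2* and the feedback inhibitors *Socs1* and *Socs3* were in the table but were not listed for subcluster 8. *Ifngr2*, *Jak1*, *Tyk2*, *Stat2*, *Irf8* and *Usp18* were not in the table.

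The list of other interferon-stimulated genes had 20 of its 23 genes in the table listed for subcluster 8, a count under the same limit. *Ly6a*, the gene of the surface protein Sca-1 (chr15:74994877-74998031), was detected in 27.0% of the subcluster 8 cells against 5.3% of the other ILC2s, a ratio of 5.09. *Isg15*, a protein that is attached to others as ubiquitin is, was at 28.1% against 7.8%, and *Isg20*, an RNA exonuclease, was at 32.6% against 12.3%. *Zbp1*, a sensor of Z-form nucleic acids that can trigger cell death, was at 51.7% against 19.5%. All of these were listed for subcluster 8 alone, as were the 3 neighbours at chr16:35832874-35972605, the only protein-coding genes of that span. Of these, *Parp14*, an ADP-ribosyltransferase, was at 57.3% against 29.5%. *Parp9*, which acts in a complex with the ubiquitin ligase encoded by *Dtx3l*, was at 36.0% against 17.8%, and *Dtx3l* was at 41.6% against 25.0%. *Parp9* and *Dtx3l* lie on opposite strands with their starts 681 bases apart.

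A further group of interferon-stimulated genes that only subcluster 8 listed had intermediate shares in the other ILC2s. *Bst2*, which tethers budding virus to the cell surface, was at 61.8% against 42.4%. *Ifi35*, a partner of NMI, was at 57.3% against 34.2%, *Trim30a* was at 44.9% against 23.7%, *Rnf213*, a large ubiquitin ligase, was at 42.7% against 23.6%, and *Xaf1*, which promotes apoptosis, was at 39.3% against 16.0%. The remaining 8 were shared with other subclusters. *Epsti1* was at 57.3% against 31.8%, *Phf11b* at 42.7% against 18.8%, *Ifi209* at 37.1% against 17.4%, *Slfn2* at 88.8% against 74.0% and *Ifitm3*, which blocks entry of viruses, at 30.3% against 13.5%, and each of these 5 was also listed for subcluster 1. *Sp100*, a component of nuclear bodies, at 85.4% against 65.1%, and *Ifi203*, at 83.1% against 68.8%, were also listed for subclusters 1 and 5. *Lgals3bp*, at 71.9% against 50.2%, was also listed for subclusters 1 and 4 and was higher in subcluster 4 at 82.6%.

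Not every arm of the interferon response was represented. Of the 60 genes on the list of other interferon-stimulated genes, 37 were not in the table for any subcluster. Among these were the classical targets of type I interferon *Ifit1*, *Ifit2*, *Ifit3*, *Mx1*, *Mx2*, *Rsad2* and the Oas genes, the genes of the chemokines CXCL9, CXCL10 and CXCL11, and *Cd274*, the gene of PD-L1. *Ly6e*, *Samd9l* and *Slfn5* were in the table and were listed for other subclusters only. Whether the missing genes were rare in all ILC2s or similar between subclusters is not given by the table.

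**Figure D3:**
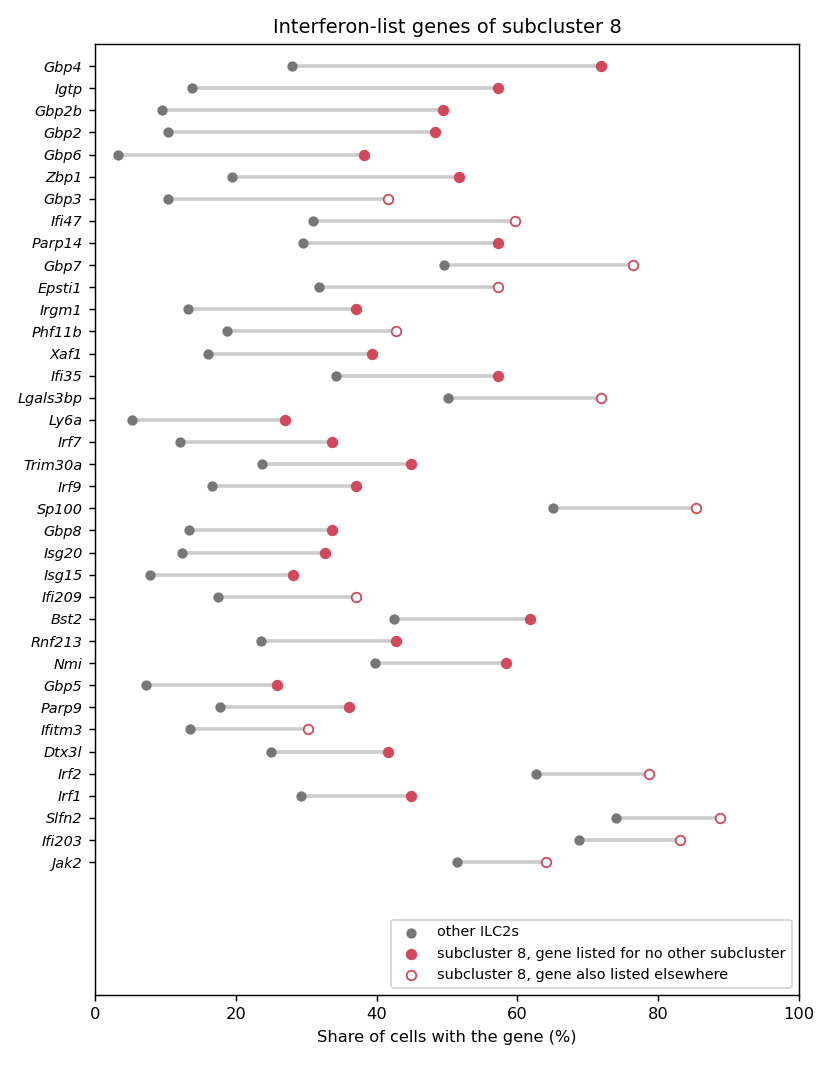
Share of cells (horizontal axis, %) in which 37 of the 38 interferon genes listed for subcluster 8 were detected, in subcluster 8 (red) and in all other ILC2s (grey), ordered by the difference. Filled red points are the 24 genes listed for no other subcluster and open red points the 13 that were also listed elsewhere.

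The machinery of antigen processing for MHC class I was listed almost as completely, but less exclusively. Of the 24 genes on this list 20 were in the table and 15 were listed for subcluster 8, against 8 for subcluster 1, 7 for subcluster 6, 6 for subcluster 4, 5 for subcluster 2 and none for subclusters 0, 3, 7 and 9. Subcluster 5 listed 10, all detected in a smaller share of its cells. The largest difference was that of *Tap1*, a subunit of the transporter that moves peptides into the endoplasmic reticulum, at 76.4% of the subcluster 8 cells against 41.2% of the other ILC2s. In the other subclusters listing *Tap1* the share was 54.3% in subcluster 1 and 19.5% in subcluster 5. *Tap2*, its partner, was at 79.8% against 60.7%.

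The 3 catalytic subunits of the immunoproteasome, the form of the proteasome induced by interferon, were all listed. *Psmb10* was at 92.1% against 63.3% and was listed for no other subcluster. *Psmb9* was at 95.5% against 64.3%. It was also listed for subclusters 4, 6, 2 and 1, with shares of 93.5%, 86.4%, 84.0% and 80.8%, and was detected in 42.6% of the cells of the subclusters that did not list it. *Psmb8* was at 100% against 91.1%, and *Psme1*, a subunit of the proteasome activator, was at 97.8% against 86.6%. The constitutive proteasome did not share this pattern in full, with 2 of its 25 genes in the table listed for subcluster 8, *Psma4* at 93.3% against 74.2% and *Psma5* at 88.8% against 68.2%. Both of these were higher in subcluster 4, which listed 23 of the 25.

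The peptide-loading genes *Tapbp* and *Tapbpl*, whose products help MHC class I molecules take up peptide, were at 80.9% against 60.5% and at 58.4% against 27.7%. Of the MHC class I genes themselves, *H2-K1* and *H2-D1* were detected in 100% of the subcluster 8 cells and in 98.6% and 99.8% of the others, so that the shares could hardly differ. The less widespread genes did differ, with *H2-Q4* at 75.3% against 53.6%, *H2-Q6* at 44.9% against 25.1%, *H2-Q7* at 98.9% against 77.3%, *H2-T22* at 76.4% against 51.9% and *H2-T23* at 96.6% against 78.7%. These genes are close copies of each other, and their shares depend on how the reads were assigned. *H2-DMa*, which acts on MHC class II, was at 37.1% against 25.1%, and was the only 1 of 7 genes of the MHC class II list, while the class II genes *H2-Aa*, *H2-Eb1* and *Cd74* were not in the table. At chr17:33915899-34216321, 7 of the 23 protein-coding genes were listed for subcluster 8, namely *Tapbp*, *H2-K1*, *H2-DMa*, *Psmb9*, *Tap1*, *Psmb8* and *Tap2*. *Tap1* and *Psmb9* are on opposite strands with their starts 211 bases apart.

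*Il13*, the gene of the cytokine that drives mucus production and acts on hepatocytes and epithelium (chr11:53631324-53634702), was detected in 69.7% of the subcluster 8 cells and in 36.8% of the other ILC2s. That was the highest share of any subcluster listing it, while subclusters 4, 7, 2 and 1 had it in 62.1%, 60.5%, 56.5% and 52.8% of their cells. The paper names subclusters 1, 2, 4 and 7, and not 8, for high *Il13* expression. A share of cells is not a level of expression, and levels were not examined here. In the subclusters that did not list *Il13*, the share solved from the sizes was 17.9%. Given its size, subcluster 8 held 1.26% of all ILC2s in which *Il13* was detected. *Areg*, the gene of the epidermal growth factor family member amphiregulin, which supports tissue repair, was at 57.3% against 39.5%, lower than in subcluster 7 at 62.0% and above subcluster 3 at 51.7%. The type 2 genes *Il4*, *Il5*, *Csf2* and *Calca* were in the table but not listed for subcluster 8, so that 2 of the 7 type 2 genes in the table were, against 9.62% of all its genes.

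*Ctla4*, the gene of an inhibitory receptor best known from T cells (chr1:60887000-60915832), was detected in 73.0% of the subcluster 8 cells and in 33.5% of the other ILC2s. It was the highest share of the 5 subclusters listing it, while subclusters 4, 6, 2 and 1 had it in 61.3%, 55.6%, 55.4% and 50.9% of their cells. Cells of the subclusters that did not list it had it in 10.8%. *Pdcd1*, the gene of the inhibitory receptor PD-1, was at 46.1% against 34.5%, and was higher in subcluster 7 at 74.0% and in subcluster 6 at 56.6%. *Klrg1*, an inhibitory receptor of activated ILC2s, was at 85.4% against 68.8%. That was below subclusters 1 and 6, at 92.1% and 91.9%, and close to subcluster 2 at 85.6%. *Icos*, *Cd28*, *Cd226*, *Tnfrsf18*, *Cd200r1* and *Cd160* were in the table and were not listed for subcluster 8. *Tigit*, *Lag3* and *Havcr2* were not in the table.

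**Figure D4:**
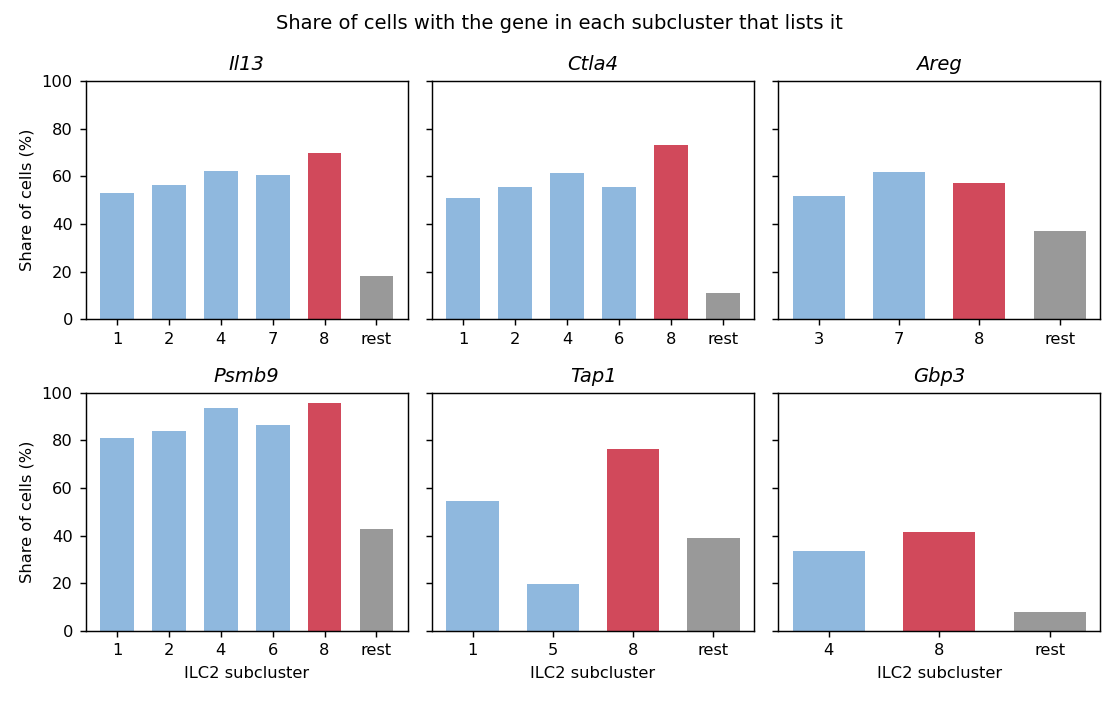
Share of cells (vertical axis, %) in which Il13, Ctla4, Areg, Psmb9, Tap1 and Gbp3 were detected, in each subcluster that listed the gene and, as rest, in the subclusters that did not, the latter solved from the sizes. Subcluster 8 (red) has the highest bar for each gene but Areg, for which subcluster 7 is higher at 62.0%.

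Some genes of a list of ILC2 identity were among the members, not all of them particular to ILC2s. Subcluster 8 listed 4 of the 16 ILC2 identity genes in the table, or 25.0%, against 9.62% of all genes in the table. *Nfil3*, a factor needed for innate lymphoid cell development, was at 42.7% against 19.5%, and *Il18r1*, a receptor subunit for IL-18, was at 40.4% against 21.8%. Among the cell types of all sorted cells, both were listed for types such as basophils and ILC1s and not for the type named ILC2. *Maf*, a factor that controls cytokine genes, was at 89.9% against 78.7% and was listed for subcluster 8 alone, and *Id2*, which innate lymphoid cells require, was at 98.9% against 97.3%. *Gata3*, *Rora*, *Il1rl1* (the gene of ST2), *Il7r*, *Il2ra*, *Il17rb*, *Kit* and *Tcf7* were in the table and were not listed for subcluster 8, which says only that they were not listed as higher there. *Thy1*, which was used in the sort, was not in the table. The table compares ILC2s only with other ILC2s, so a missing listing says nothing against the label of the cells.

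The counts in this paragraph are small and stand beside the 9.62% of all genes in the table that were listed for subcluster 8. Of the genes of STAT5 targets and cytokine feedback subcluster 8 listed 2 of the 5 in the table. *Socs2*, an inhibitor that STAT5 induces, was at 38.2% against 24.3% and was listed for subcluster 8 alone, and *Pim1*, a kinase under the same control, was at 97.8% against 84.8%. The NF-κB list gave 2 of 6 genes in the table, of which *Nfkbia*, the gene of an NF-κB inhibitor, was at 98.9% against 91.5%, and *Tnfaip3*, which ends the signal, was at 93.3% against 79.0%. The AP-1 family gave 2 of 7 genes in the table, *Fosl2* at 60.7% against 44.4% and *Jund* at 100% against 96.6%. The early response genes *Nr4a1*, at 82.0% against 60.0%, and *Zfp36*, at 85.4% against 68.9%, were the 2 of 16 genes of dissociation stress, or 12.5%. None of the 10 glycolysis genes in the table and none of the 12 ribosome biogenesis genes was listed, while subcluster 4 listed 7 and 12 of them. Of 21 proliferation genes in the table, *Top2a* alone was listed, at 49.4% against 30.2%, and subcluster 4 listed all 21. The endoplasmic reticulum genes *Sec61b*, *Sec61g* and *Hspa5* were the 3 of 19 listed, or 15.8%.

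Markers of other cell types that could have passed the gate were checked in the same table. Before the subclustering, the authors had removed cells with markers of other types, among them *Cd3* and *Cd11b*. Absences of such markers here were therefore in part set beforehand. None of the 13 T cell markers was listed for subcluster 8. Only 6 of them were in the table, *Cd3e*, *Cd3g*, *Trbc1*, *Trbc2*, *Trdc* and *Tcrg-C1*, each for other subclusters only. *Tcrg-C4*, a T cell receptor gamma constant gene that was not on that list and is named after its values were seen, was listed for subcluster 8 at 77.5% against 52.7%, the highest share of the 4 subclusters listing it. Its part in the other values was not tested. Of the 7 regulatory T cell markers *Ctla4* was listed, and *Foxp3* was not in the table. *Ccl5*, a chemokine gene, was the only 1 of 13 markers of NK cells and ILC1s, at 60.7% against 43.6%. *Pecam1*, a surface protein of endothelium and of leukocytes, was the only 1 of 7 endothelial markers, at 49.4% against 27.1%, and was also listed for subclusters 1 and 5. No marker of ILC3s, basophils, macrophages, B and plasma cells, hepatocytes or lung epithelium was listed for subcluster 8. The part of such cells in the values above was not tested.

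Subcluster 8 shared more of its list with subcluster 1 than with any other. Of its 253 genes 73 were listed for no other subcluster, 83 for 1 other, 48 for 2 others, 29 for 3, 18 for 4 and 2 for 5. The 106 genes shared with subcluster 1 were 41.9% of the list of subcluster 8 and 29.2% of that of subcluster 1. With subcluster 6 it shared 50 genes, which were 19.8% and 26.3% of the respective lists, and with subcluster 2 it shared 48 genes, 19.0% and 36.6%. The 36 genes shared with subcluster 4 were 14.2% of the list of subcluster 8 and 4.49% of the longer list of subcluster 4. Of the 45 shared with subcluster 5, 42 were detected in a smaller share of its cells than of the others, so that a shared listing there was no shared direction of the shares. Subcluster 7 shared 28, subcluster 3 shared 23, subcluster 9 shared 10 and subcluster 0 shared 2.

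Interferon genes were found among the unshared and the shared genes. Of the 73 genes listed for subcluster 8 alone 24 were on the interferon lists, against 14 of the 180 that were also listed elsewhere. Genes rare in the other ILC2s had less room to be listed elsewhere, so the unshared count is in part given by the limit on listing. Of these 180, 106 had their highest share in subcluster 8 among the subclusters listing them, 4 of them tied with another, while subcluster 4 was highest for 24, subcluster 1 for 18, subcluster 6 for 15, subcluster 7 for 13, subcluster 9 for 3 and subcluster 2 for 1. Some of these orders rest on close shares, such as *Higd2a* at 85.5% in subcluster 6 and 85.4% in subcluster 8. Among the shared genes 12 of 14 interferon genes and 12 of 13 genes of MHC class I were highest in subcluster 8, 2 of the latter tied, against 82 of the other 153. Being listed for subcluster 8 was required for every one of these genes, so their position at the top of the order is in part what the choice of members gives. Even for *Gbp6*, subcluster 8 held 7.22% of all ILC2s with the gene, and it held 3.38% of those with *Gbp2b*, 3.31% of those with *Ly6a* and 2.74% of those with *Igtp*, because of its small size.

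Members outside these lists included several with large differences, chosen here after their values were seen except where the largest differences name them. *Agpat4*, an acyltransferase of phospholipid synthesis, was at 73.0% against 40.1% and was also listed for subcluster 1 at 64.1%. *Cysltr2*, a receptor for the cysteinyl leukotrienes that activate ILC2s, was at 67.4% against 34.9%, and *Map3k8*, a kinase upstream of ERK, was at 57.3% against 26.0%. The lysosomal proteases *Ctss*, at 57.3% against 27.0%, and *Ctsh*, at 69.7% against 38.9%, were both in the top 18 by difference. *Serpina3g*, a protease inhibitor of activated lymphocytes, was at 77.5% against 48.7%. *Prdm1*, the gene of the repressor BLIMP-1, was at 48.3% against 25.0% and *Mt1*, a metallothionein, at 34.8% against 13.0%.

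Further members with known ties to innate defence, also chosen after their values were seen, were in the same range. The inflammatory caspase genes *Casp1* and *Casp4* were at 56.2% against 36.4% and at 40.4% against 22.9%, and were listed for subcluster 8 alone. *Sp140* and *Sp110*, neighbours of *Sp100* on chromosome 1, were at 39.3% against 16.3% and at 64.0% against 45.1%, also for subcluster 8 alone. *Zc3hav1*, an antiviral zinc-finger protein, was at 83.1% against 57.5%, and *Trim25*, a ubiquitin ligase of the RIG-I pathway, was at 29.2% against 13.2%. *Il12rb1*, a receptor subunit shared by IL-12 and IL-23, was at 30.3% against 15.1%, and *Icam1*, an adhesion molecule, was at 42.7% against 22.2%.

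The letters marked in the sequences above were counted over all members. Of the 253 listed genes 208 had a RefSeq promoter entry (GRCm38.p6), and the ISRE core stood in the 250 bases before at least 1 start for 24 of them, or 11.5%. Over all 27025 genes with an entry the share was 3.46%, over the genes of the table not listed for subcluster 8 it was 2.72%, and over the lists of the other subclusters it ran from 2.55% to 4.39%. The matches lay mostly in the interferon genes, with 13 of 30, or 43.3%, against 2 of 13 genes of MHC class I, or 15.4%, and 9 of the 165 other members, or 5.45%. The 13 interferon genes were *Bst2*, *Gbp2*, *Gbp2b*, *Gbp3*, *Gbp5*, *Gbp7*, *Ifi203*, *Igtp*, *Irf2*, *Irgm1*, *Isg15*, *Phf11b* and *Trim30a*. Among the 9 others were *Ctss*, *Mndal*, *Cytip* and *Fosl2*. Interferon genes on the lists of the other subclusters were not counted separately, so the 43.3% has no like value there. The letters of the gamma-activated site stood before 24 of the 208 genes, or 11.5%, against 8.13% of all genes, and before 7 of the 30 interferon genes, or 23.3%. These letters read the same on both strands, and they overlapped a match to the ISRE core in 2 members, *Bst2* and *Serpinb6a*. A match describes the letters only, and *Gbp4*, *Gbp6*, *Gbp8*, *Ly6a* and *Zbp1* had no entry.

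**Figure D5:**
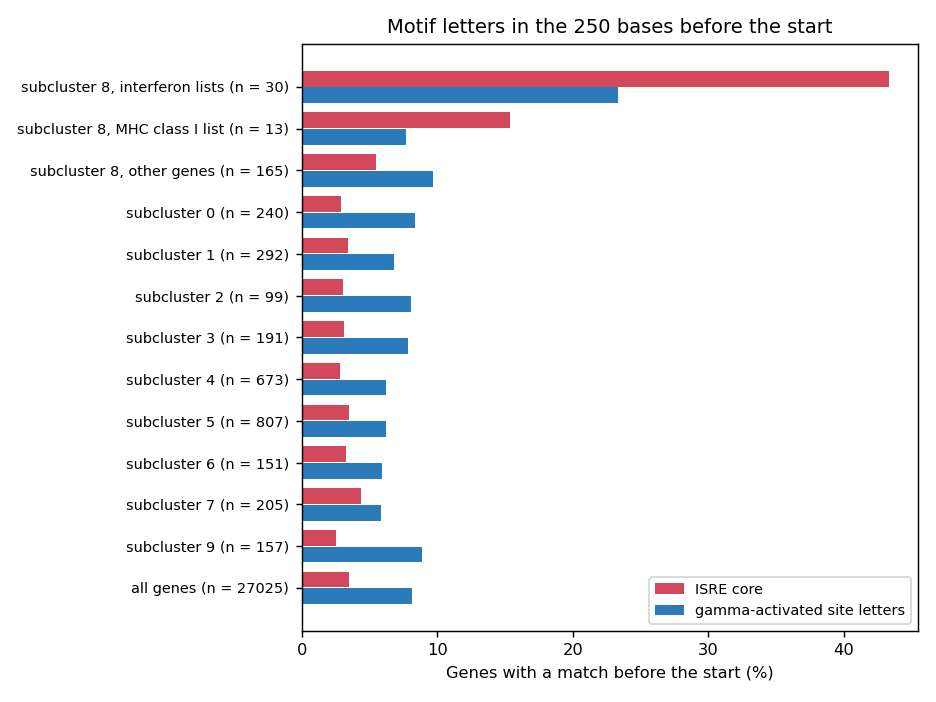
Share of genes (horizontal axis, %) with the ISRE core (red) or the letters of a gamma-activated site (blue) in the 250 bases before at least 1 start, for 3 groups of genes listed for subcluster 8, for the lists of the other subclusters and for all genes, with the number of genes that had an entry as n. The interferon genes of subcluster 8 reach 43.3% for the ISRE core. The whole list of subcluster 8, not drawn, is at 11.5%, and the whole lists of the other subclusters stay between 2.55% and 4.39%.

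All 253 listed genes were placed on the genome, and 85 of them lay within 500000 bases of another listed gene, in 33 groups. Beside the groups already named, *Sp110*, *Sp140* and *Sp100* were 3 of the 4 protein-coding genes at chr1:85576899-85709998, and *Ifi209*, *Mndal* and *Ifi203* were 3 of 7 at chr1:173630917-173942672. *Gbp8*, *Gbp4* and *Gbp6* were 3 of 6 at chr5:105014150-105293698. The span chr17:35194439-35474563 held *Ltb*, *H2-D1*, *H2-Q4*, *H2-Q6*, *H2-Q7* and *H2-Q10*, which were 6 of 14.

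In the deposited table of 21 cell types, made from all sorted cells, 113 of the 253 genes appeared, 14 of them on the interferon lists. No type listed more than 6 of these 14, a number reached by endothelium, naive γδ T cells and macrophages, while regulatory T cells listed 5. Of the 5 given markers, *Gbp4* and *Igtp* were each listed for 5 types there, in 4 of them with a smaller share inside the type than outside it. The other 3 had their largest differences in cell types other than ILC2s. *Ly6a* was detected in 92.0% of the endothelial cells against 29.6% of all other cells, *Ctla4* in 91.6% of the regulatory T cells against 48.7%, and *Il13* in 84.8% of the basophils against 22.7%, while the type named ILC2 also listed *Il13*, at 32.4% against 16.6%. The cells outside a type there are not the cells outside subcluster 8 here, and the shares of the tables were not compared further.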

How the data were processed

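Group 2 innate lymphoid cells were sorted from mouse liver and lung and sequenced with droplet-based 3′ chemistry in 4 libraries, 1 per group. Per the methods and labels, the authors aligned reads to mm10 with Cell Ranger, removed doublets and dead cells by flow cytometry, excluded immune cells with few detected genes and clustered cells in Seurat. They also removed cells with markers of other types before dividing the ILC2s into subclusters. The methods describe no computational doublet caller for the sorted cells, and tables without cells allow none. Which Seurat assay the tables come from is not given in the sources used here.

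The files were 2 tables of cluster marker genes. The deposited values used were fractions of cells with a value above 0, to 3 decimals, inside each cluster and in all other cells, printed here as percentages. The deposited fold changes and p-values hold the authors' own comparisons of each cluster with all other cells, and they were neither used nor printed. In every listing at least 25.0% of cells on one side had the gene. The tables held 0 columns of values of other samples.

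Sizes of subclusters were solved by least squares, with genes that at least 2 subclusters list, without a constraint on their sum. The calculation was also run on data simulated from the solved sizes, which checks the calculation and not the sizes themselves. No test was made, because there was 1 library per group and no value per library. Positions came from GENCODE (GRCm38) and promoters from the RefSeq table of GRCm38.p6, with 250 bases before each start searched on both strands; 228 of 270 member starts had their last 20 bases within the first 300 of a GENCODE transcript. Python 3.11.15, pandas 2.3.3, NumPy 2.4.6 and matplotlib 3.10.9 were used.

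The members and the 27 gene lists were chosen with earlier results of these data known, with 4 genes present in several of the lists. The text names the 5 given markers, the members of the interferon, antigen and ILC2 lists, the 10 largest differences and the 10 largest ratios of shares, and listed genes with a smaller share in the subcluster, of which there were none. Some genes that this rule names are not reported here, and counts over lists include them. Alternatives were other gene sets and a constraint for the sizes, other limits in percentage points, and another window and motif.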

Additional observations from a re-analysis of the deposited data

How the results depend on the processing

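Of 15 alternatives 7 moved the value beyond the limits set for it and 8 did not, a count of genes being taken as moved only beyond 1.5 times. Among the 8 were 98 genes in place of 73 listed for no other subcluster when each listing had to differ by at least 10 percentage points, 12 antigen-processing genes in place of 15 with the same limit, and 17 members in place of 24 with the ISRE core in the last 150 bases before the start. Another of the 8 put the gamma-activated site in place of the ISRE core. Its equal count of 24 is of a different motif and shows no stability. The size of subcluster 8, 0.668% of ILC2s, became 0.655% when only listings with a difference of at least 10 percentage points were used and 0.653% when the sizes were made to sum to 100%, and the share of Il13-positive ILC2s that it held became 1.23% in both cases. Without the constraint the sizes summed to 100.2%. With a limit of 20 percentage points 106 genes passed in place of 232, by the construction of the limit. The median difference was 20.1 points over the members found in at most 50% of the other ILC2s, and 24 interferon genes remained of 38 when genes listed elsewhere were left out. The alternatives changed the solved sizes, the limits, the genes counted, or the window and motif. None of them could reverse the direction of a share, so the directions were not tested by them. No paired analysis was possible because the tables hold no value per library, and a group was 1 library. The tables give neither the depth nor the number of cells behind a share, so no error is given, and subcluster 8 is among the smallest subclusters.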
